A study of Mus musculus with 6 samples.

Results

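The genes described here encode the nuclear-encoded proteins of the mitochondrial respiratory chain and ATP synthase, in cultured mouse melanocytes. Members were all genes whose symbol begins with Nduf and a subunit letter and number, is Sdha to Sdhd, or begins with Uqcr, Cox4 to Cox8 or Atp5, and that were measured by a probe set with exactly 1 gene symbol. This gave 80 of 22180 genes: 33 for complex I, 4 for complex II, 8 for complex III, 17 for complex IV and 18 for complex V. The rule used symbols and no measured value. It also took in 2 pseudogenes (Uqcrh-ps1 and Atp5c1-ps) and Ndufa4l2, a paralog of Ndufa4, and left 77 genes of protein subunits. Cox6c, Ndufb2, Ndufb4, Ndufs6 and Uqcr10 were measured only by probe sets shared with other symbols and were not analysed here.

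RNA of immortal melanocytes was measured on 6 Affymetrix arrays, 3 per line. One line is heterozygous for Sox10LacZ, an allele in which LacZ disrupts Sox10, a transcription factor gene of the neural crest. It was derived from mice of 3 days of age and is called heterozygous here. Its genotype is Sox10LacZ/+ and Ink4a-Arf null. The control is melan-Ink4a-Arf-1 from Cdkn2a tm1RDp/tm1RDp mice, whose label names no Sox10 allele and which is called wild type here. By these labels both lines come from mice with a disrupted Cdkn2a (Ink4a-Arf) gene. Both were backcrossed to C57BL/6J, and were grown with 200 nM of the phorbol ester TPA and 200 pM of cholera toxin. With 1 line per genotype, an effect of the genotype cannot be told apart from any other difference between the lines. The labels do not say whether the replicates are separate cultures, and the p-values below cover the spread among these 6 arrays alone, which may be technical. The comparison asks which genes differ between these lines, 1 of which carries 1 intact copy of Sox10 by its label.

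The respiratory chain passes electrons from NADH (complex I) and succinate (complex II) through complex III to oxygen at complex IV, and complexes I, III and IV pump protons across the inner mitochondrial membrane. ATP synthase, complex V, uses the proton gradient to make ATP. Complexes I, III, IV and V combine nuclear-encoded subunits with subunits encoded by mitochondrial DNA, so both genomes supply parts of the same machines. In pigment cells the melanocyte regulator MITF is known to activate Ppargc1a, a coactivator gene of mitochondrial biogenesis.

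Array medians lay between 5.72 and 5.78 on the log2 scale. Sox10 read 9.91 ± 0.10 in the wild-type and 9.73 ± 0.05 in the heterozygous line (mean ± SD, n = 3 each; limma adjusted p 0.213). Cdkn2a read 7.16 ± 0.12 and 7.07 ± 0.08 (adjusted p 0.610), above the level of dim genes defined below. The sources used here do not say where in either transcript the probes lie, so neither value checks the labels. The 6 melanocyte markers Tyr, Tyrp1, Dct, Pmel, Mlana and Mitf had line means of 8.65 or more. At a limma adjusted p below 0.05, Tyr and Dct were lower and Mitf higher in the heterozygous line. Mitf lies on chromosome 6, as do Col1a2 and the endothelial Vwf among the markers that follow. That chromosome was higher as a whole (described below), and the part of this shift in these markers was not tested. Of 9 fibroblast markers 4 were higher in the heterozygous line, as were 3 of 4 smooth muscle markers. So were 2 of 4 leukocyte, 1 of 4 endothelial and 0 of 4 keratinocyte markers. At the same threshold 7.46% of all genes were higher and 5.92% lower, and 10.5% and 8.23% of the genes above the dim level. No marker of these 5 lists was lower, and their part in the results below was not tested. Fibroblast line means ranged from 3.64 to 7.71 in the wild type and from 3.54 to 10.9 in the heterozygous line. From wild type to heterozygous, Dcn (4.88 to 10.80), Pdgfrb (6.27 to 10.35), Fbln1 (7.71 to 10.88) and Col1a2 (6.35 to 7.60) were higher. Lum, Pdgfra and Col3a1 lay at or below 5.86 in both. Col1a1 (7.04 to 6.84, limma adjusted p 0.140) and Thy1 (6.53 to 6.39, limma adjusted p 0.394) had negative differences that did not pass. Smooth muscle line means ranged from 5.35 to 7.11 and from 5.80 to 12.5. Wild-type replicate 2 was the array farthest from the other 2 of its line in 38 of the 80 members (47.5%, against 42.0% of all genes).

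The respiratory chain genes differed little between the lines. Of 80 members 6 were higher in the heterozygous line and 0 were lower at an adjusted p below 0.05 by limma, where 7.46% of all genes were higher and 5.92% lower (13.4% in either direction). The members' share of higher genes was near that background. At an unadjusted p below 0.05, 9 were higher and 5 lower, against 13.5% and 11.5% of all genes. These shares of all genes are the background for the counts by complex and list below. The median log2 difference (heterozygous minus wild type throughout) was 0.054, against 0.0014 over all genes, and 55 of 80 members had a positive difference, against 50.4% of all genes. With arrays centred on their medians 63 members and 12732 of the 22180 genes were positive. Without wild-type replicate 2, the same 6 genes and 3 more were higher and 1 was lower. In that fit 2308 of the 22180 genes were higher and 1914 lower. Leaving out any single other array gave between 1 and 4 higher members, with the lowest count without heterozygous replicate 2.

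No member differed by more than 0.44 in size, or 1.35-fold, whereas 10.9% of all genes did. Among the 14668 brighter genes, those with a mean log2 signal above 5.20 (the 40th percentile over probe sets; others are called dim), 15.2% differed by more, 10.5% were higher and 8.23% lower at the same threshold; of the 72 brighter members 5 were higher and 0 lower. For 80 of 80 members the 95% confidence interval lay inside a 2-fold difference, as it did for 93.8% of all genes and 91.2% of the brighter genes. For 75 it lay inside 1.5-fold, against 83.1% of all genes and 78.3% of the brighter genes. The 5 whose interval reached 1.5-fold were Ndufa4, Ndufa9, Ndufa1, Ndufb11 and Cox8b. For 20 members every heterozygous array lay above every wild-type array and for 7 below, against 17.0% and 14.6% of all genes (31.6% in either direction). The median size of a member's difference was 0.094, against 0.12 over all genes and 0.14 over the brighter genes.

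**Figure D1:**
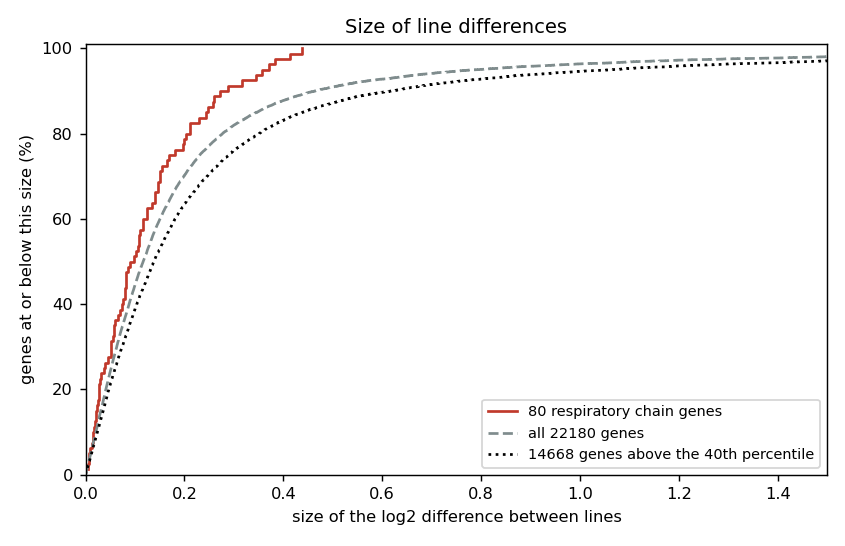
Cumulative share of genes (vertical axis, percent) by the size of their log2 difference between the lines (horizontal axis, cut at 1.5); the solid line is the 80 respiratory chain genes, the dashed line all 22180 genes and the dotted line the 14668 brighter genes. The solid line reaches 100% at 0.44, where 10.9% of all genes still lie beyond.

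Measured for each array as the median deviation of the 80 members from their own wild-type mean, the wild-type arrays gave 0.01, 0.02 and −0.03 for replicates 1 to 3, and the heterozygous arrays 0.02, 0.07 and 0.06. Heterozygous replicate 1 thus lay within the range of the wild-type arrays. Complexes were grouped by symbol, so Ndufa4, now assigned to complex IV, counts in complex I here and below. By complex, the median log2 difference was 0.079 for complex I, 0.054 for complexes II and III, −0.020 for complex IV and 0.027 for complex V. The sign for complex IV depended on scaling: its median became 0.0087 when arrays were centred on their medians and −0.0070 after quantile normalization. Single arrays also moved these medians: complex III gave −0.022 without wild-type replicate 3 and 0.15 without wild-type replicate 2, and complex IV gave 0.028 without wild-type replicate 1. The plot of all members by complex shows most intervals crossing 0.

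**Figure D2:**
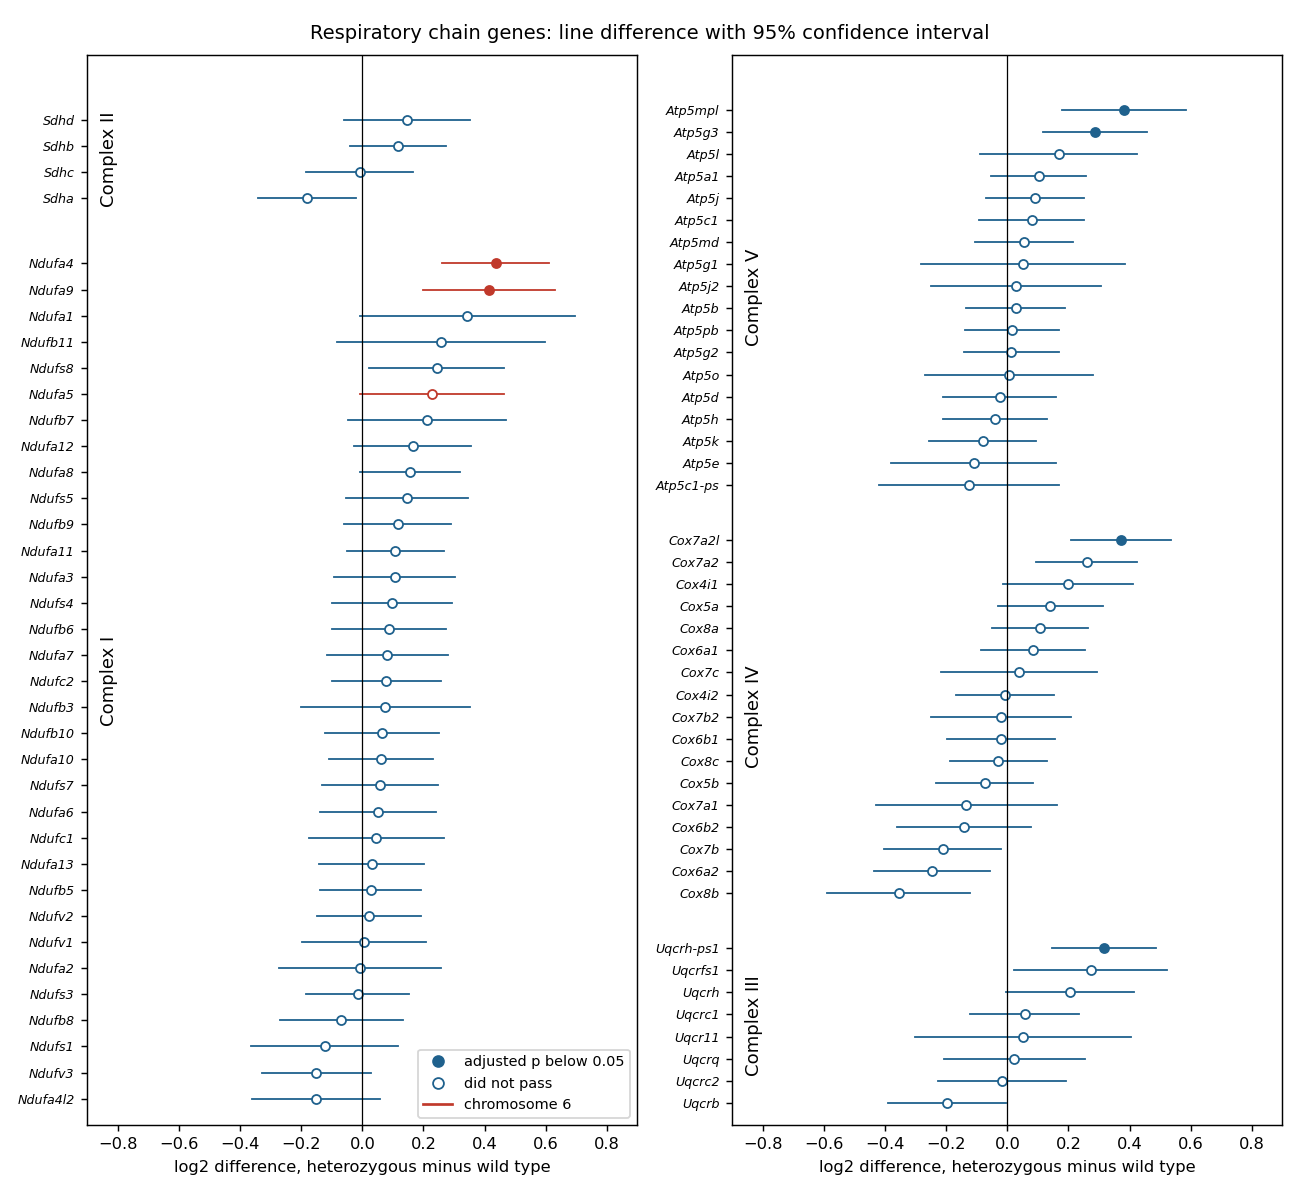
Log2 difference, heterozygous minus wild type, for each of the 80 members by complex (points; lines are 95% confidence intervals of the limma fit, n = 3 arrays per line). Filled points passed at an adjusted p below 0.05, open points did not, and red marks the 3 genes on chromosome 6; the 6 filled points lie between 0.29 and 0.44.

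Complex I oxidises NADH. Its core holds the flavin and iron-sulfur centres. The 6 nuclear-encoded core genes measured here were Ndufv1, Ndufv2, Ndufs1, Ndufs3, Ndufs7 and Ndufs8. None of the 6 passed, 1 was higher at an unadjusted p below 0.05, and their median was 0.01. Ndufs8 read 9.52, 9.68 and 9.36 on wild-type replicates 1 to 3 and 9.70, 9.82 and 9.77 on the heterozygous arrays, a difference of 0.24 (SE 0.10, adjusted p 0.156). Its arrays did not overlap, by a margin smaller than the spread within the wild-type line, and it passed only without wild-type replicate 2 (adjusted p 0.0320; up to 0.373 over the alternatives). Ndufs1, which carries several iron-sulfur clusters, differed by −0.12 (adjusted p 0.539), and Ndufv1, which binds NADH, by 0.0048.

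Accessory proteins surround and stabilise the core. Of the 26 genes grouped by symbol as accessory, 2 rose and 24 did not pass, where 7.46% of all genes were higher. Both that rose, Ndufa4 and Ndufa9, lie on chromosome 6, and Ndufa4 is now assigned to complex IV, which leaves Ndufa9. With the 3 chromosome 6 genes left out, 0 of 30 complex I members passed by limma, with 1 higher and 0 lower at an unadjusted p below 0.05, and their median was 0.07. Ndufb7 differed by 0.21 (adjusted p 0.301) and passed only without wild-type replicate 2 (adjusted p 0.0258; up to 0.578 over the alternatives). Ndufc2, a small membrane subunit gene, read 11.77 ± 0.10 in the wild type and 11.85 ± 0.02 in the heterozygous line. At the lower end were Ndufv3, a flavoprotein-arm gene (−0.15, adjusted p 0.283), and Ndufa4l2, which hypoxia is known to induce (−0.15, adjusted p 0.367), the latter a dim gene.

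Ndufa4 was first assigned to complex I and is now regarded as a subunit gene of cytochrome c oxidase. It lies on chromosome 6 at 11900372 to 11907450 (GRCm38.p6; Entrez 17992). Its signal was 10.83, 10.98 and 10.84 on wild-type replicates 1 to 3 and 11.34, 11.27 and 11.34 on heterozygous replicates 1 to 3. The lowest heterozygous array lay well above the highest wild-type array. The difference was 0.44 (SE 0.08, 95% confidence interval 0.26 to 0.61, adjusted p 0.00699), or 1.35-fold. Ndufa4 was the only member that passed under each of the 14 other fits (adjusted p 0.00158 to 0.0419).

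Ndufa9 encodes an accessory subunit at the junction of the complex I arms (chromosome 6, 126821863 to 126849144; Entrez 66108). It read 10.86, 10.92 and 10.64 on the wild-type arrays and 11.22, 11.16 and 11.29 on the heterozygous arrays, with wild-type replicate 3 the low array and no overlap. The difference was 0.41 (SE 0.09, interval 0.20 to 0.63, adjusted p 0.0236). The call was lost without wild-type replicate 1 and without each heterozygous array (adjusted p up to 0.103; 0.00929 to 0.103 over the alternatives). The third chromosome 6 member, Ndufa5, encodes a subunit of the matrix arm (24518662 to 24527690; Entrez 68202). Its wild-type arrays read 6.90, 7.26 and 7.14 and its heterozygous arrays 7.31, 7.38 and 7.30, which did not overlap by a small margin. The difference was 0.23 (SE 0.10, interval −0.01 to 0.46, adjusted p 0.214).

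**Figure D3:**
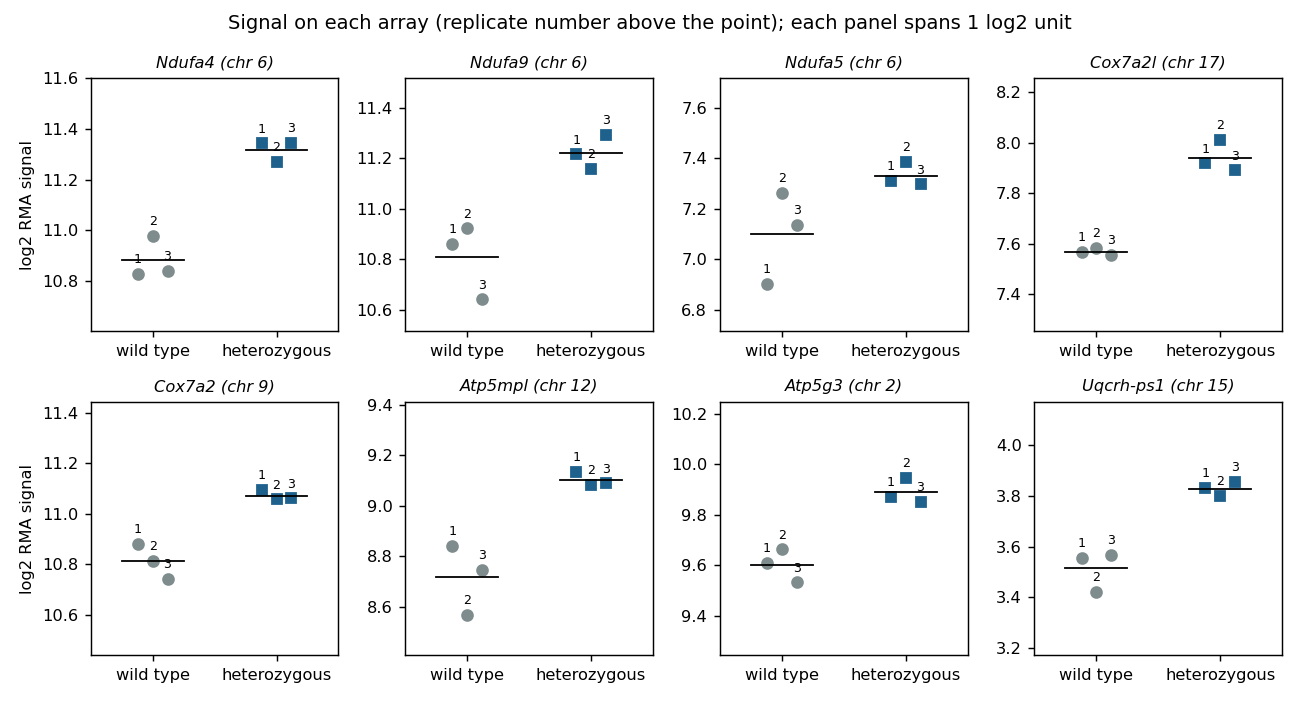
Log2 signal on each array for the 6 members that passed and for Ndufa5 and Cox7a2, which did not; circles are wild-type and squares heterozygous arrays, numbers are replicates, bars are means of 3 arrays, and each vertical axis spans 1 log2 unit around its own gene. In every panel the 3 heterozygous arrays lie above the 3 wild-type arrays.

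Chromosome 6 as a whole was higher in the heterozygous line. Of its 1201 measured genes 20.6% were higher and 2.91% lower, against 6.72% higher among all genes placed on other chromosomes. Of its 710 brighter genes 33.7% were higher, against 9.30% of the brighter genes on other chromosomes. The median difference of those 710 genes was 0.24, while the medians of the other 19 chromosomes (18 autosomes and X) ran from −0.03 on chromosome X to 0.03 on chromosome 10. Among the 50 nearest brighter genes, 25 on each side, the median was 0.40 around Ndufa4, 0.34 around Ndufa5 and 0.30 around Ndufa9, with 24, 21 and 19 genes higher and 6, 3 and 1 lower. The stretches around Ndufa4 and Ndufa5 overlap and share genes. The differences of Ndufa4 (0.44) and Ndufa9 (0.41) lay above, and that of Ndufa5 (0.23) below, the median of their neighbours. The part of the chromosome-wide shift in the differences of these 3 genes was not tested, and neither was the DNA copy number. On other chromosomes, 4 of 77 members were higher and 0 lower (7 higher and 5 lower at an unadjusted p below 0.05 by limma), with a median of 0.05.

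**Figure D4:**
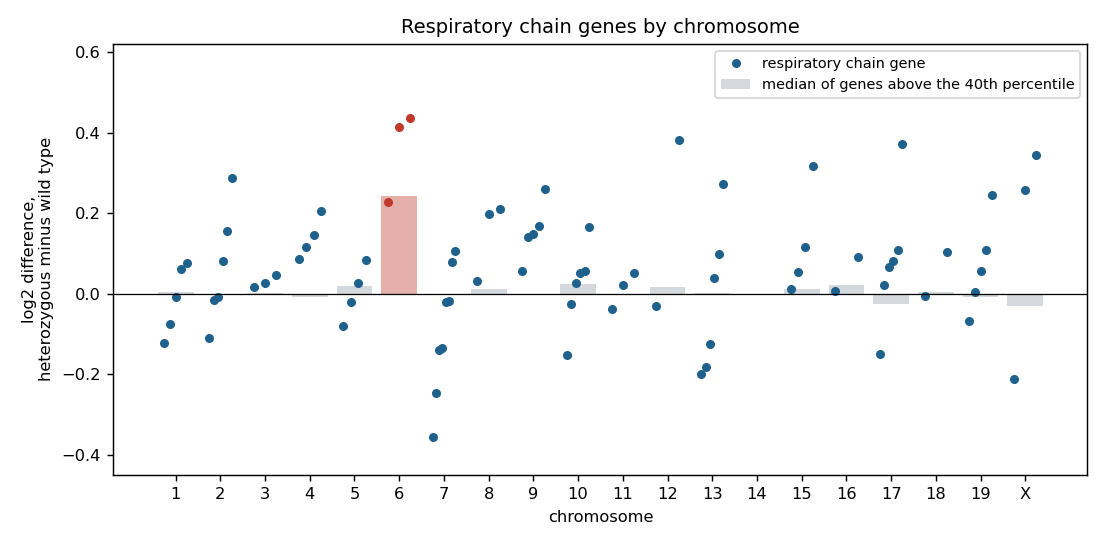
Log2 difference, heterozygous minus wild type, of each respiratory chain gene (points) by chromosome; bars from 0 are the median over the brighter genes of that chromosome, and chromosome 6 is in red. The chromosome 6 bar stands at 0.24 and its 3 members at 0.23, 0.41 and 0.44, while the other bars lie within −0.03 to 0.03.

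The bases upstream of Ndufa4 and Ndufa9 are shown because these were the members that rose on chromosome 6. They are 250 bases before the annotated start from the RefSeq promoter table (GRCm38.p6), on the minus strand at chr6:11907451-11907700 and chr6:126849145-126849394. Neither stretch holds any of the 4 motifs searched below, so no base is in capitals.
Ndufa4: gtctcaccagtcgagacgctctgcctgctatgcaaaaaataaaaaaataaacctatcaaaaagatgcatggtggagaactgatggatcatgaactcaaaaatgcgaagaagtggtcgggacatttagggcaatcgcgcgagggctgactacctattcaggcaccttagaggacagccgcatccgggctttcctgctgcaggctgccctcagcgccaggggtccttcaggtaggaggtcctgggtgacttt
Ndufa9: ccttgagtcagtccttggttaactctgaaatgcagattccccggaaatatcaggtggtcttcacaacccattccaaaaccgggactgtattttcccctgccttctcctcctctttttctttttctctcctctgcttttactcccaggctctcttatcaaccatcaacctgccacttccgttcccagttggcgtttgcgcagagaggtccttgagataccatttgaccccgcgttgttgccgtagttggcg

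Nuclear respiratory chain genes are known for promoters bound by NRF1, the ETS factor GABP, YY1 and CREB. RefSeq promoters of 300 bases (250 before and 50 after the start) were at hand for 64 of the 80 members and were searched on both strands for 4 motifs. The NRF1 letters, printed in capitals in the examples that follow, were found in 15 of 64 members (23.4%), against 5.19% of all 27025 genes of the table and 10.3% of 10779 brighter protein-coding genes. The YY1 letters AAGATGGC were found in 9 (14.1%, against 3.19% and 4.68%). The ETS letters CCGGAAGT were found in 5 (7.81%, against 4.31% and 7.92%) and the CREB letters TGACGTCA in 3 (4.69%, against 2.03% and 3.32%). The median GC content was 56.0% over the members' 69 promoters (5 members have several starts) and 52.4% over all 32851 of the table. A match is a description of letters and not of binding.

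Examples from each complex show the matched letters in their surroundings; each is read on the gene's strand, with the match in capitals. The first 5 hold the NRF1 letters on either strand and the last the YY1 letters, at chr17:56717692-56717721 (plus), chr9:50603909-50603938 (minus), chr9:108936668-108936697 (plus), chr5:115349101-115349130 (minus), chr2:73911295-73911324 (minus) and chr6:126849097-126849126 (minus). The Ndufa9 match lies just inside the gene, and the Atp5g3 match at an annotated start inside the gene's span.
Ndufa11: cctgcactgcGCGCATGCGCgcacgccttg
Sdhd: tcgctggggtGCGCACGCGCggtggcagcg
Uqcrc1: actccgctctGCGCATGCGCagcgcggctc
Cox6a1: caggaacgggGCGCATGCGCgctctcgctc
Atp5g3: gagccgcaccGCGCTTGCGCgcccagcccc
Ndufa9: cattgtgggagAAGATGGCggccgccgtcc
The median difference between the lines was 0.08 for the 15 members with the NRF1 letters and 0.06 for the 49 searched without them, with 1 and 3 higher. With the YY1 letters it was 0.06, and 1 of 9 was higher, which was Ndufa9.

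Complex II, succinate dehydrogenase, also belongs to the citric acid cycle and is encoded by nuclear DNA alone. None of its 4 genes passed by limma, with 0 higher and 1 lower at an unadjusted p below 0.05. Sdha, the flavoprotein gene, read 12.02, 12.04 and 11.98 in the wild type and 11.81, 11.80 and 11.88 in the heterozygous line. The heterozygous arrays were all lower, but the difference of −0.18 (SE 0.07, adjusted p 0.146) did not pass, except with a variance trend (adjusted p 0.0319; up to 0.354 over the alternatives). Sdhb, the iron-sulfur subunit gene, differed by 0.12, and the membrane anchor genes Sdhc and Sdhd by −0.0084 and 0.15. All 4 intervals lay inside a 1.5-fold difference.

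Complex III moves electrons from ubiquinol to cytochrome c. Its 7 protein-coding members did not pass by limma, with 1 higher and 1 lower at an unadjusted p below 0.05; the count of 1 higher in this complex was the pseudogene Uqcrh-ps1. Uqcrfs1, the Rieske iron-sulfur protein gene, read 7.15, 7.30 and 6.92 in the wild type and 7.40, 7.47 and 7.32 in the heterozygous line (difference 0.27, SE 0.11, adjusted p 0.162). It passed only without wild-type replicate 2 (adjusted p 0.0384; up to 0.389 over the alternatives). Uqcrb, a ubiquinone-binding subunit gene, differed the other way, with 12.10 ± 0.12 against 11.90 ± 0.04 (difference −0.20, adjusted p 0.187). The core protein genes Uqcrc1 and Uqcrc2 differed by 0.06 and −0.02, and Uqcrh, the hinge protein gene, by 0.20 (adjusted p 0.213).

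Uqcrh-ps1 (chromosome 15) read 3.55, 3.42 and 3.57 in the wild type and 3.83, 3.80 and 3.85 in the heterozygous line, a difference of 0.32 (SE 0.07, adjusted p 0.0273). The lines did not overlap, and the gene is dim. A pseudogene resembles its parent gene, and the sources used here do not say whether its probes also read Uqcrh RNA. It failed the threshold without wild-type replicate 1 and without each heterozygous array (adjusted p up to 0.115; 0.0161 to 0.115 over the alternatives). The other pseudogene, Atp5c1-ps, differed by −0.12 (adjusted p 0.627).

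Complex IV, cytochrome c oxidase, grouped by symbol and so without Ndufa4, held genes on both sides of 0. It had 7 positive and 10 negative differences (50.4% of all genes were positive). By limma 1 of 17 rose and 0 fell, against 7.46% and 5.92% of all genes. At an unadjusted p below 0.05, 2 were higher and 3 lower, against 13.5% and 11.5% of all genes. Cox7a2l (chromosome 17, 83501917 to 83514333; Entrez 20463) encodes a protein that joins complexes III and IV into supercomplexes, and C57BL/6 mice are known to carry a short form of it. It read 7.57, 7.58 and 7.56 in the wild type and 7.92, 8.01 and 7.89 in the heterozygous line. The gap between the lines was wider than the range within either. The difference was 0.37 (SE 0.07, interval 0.21 to 0.53, adjusted p 0.0109), and the call was lost only without heterozygous replicate 2 (adjusted p 0.0569; 0.00631 to 0.0569 over the alternatives).

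Several complex IV subunits come as a common form and a form used in particular tissues, such as heart and skeletal muscle, lung or testis. Of 6 common-form genes 0 passed by limma, with 1 higher and 1 lower at an unadjusted p below 0.05 and a median of 0.10. Of 7 tissue-form genes 0 passed, with 0 higher and 2 lower at an unadjusted p below 0.05. All 7 had a negative difference (median −0.13), but 2 of them turned positive with arrays centred on their medians, 1 after quantile normalization and 1 without wild-type replicate 2. Of the 7, Cox7a1, Cox7b2, Cox8b and Cox8c were dim.

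The common Cox7a2 read 10.88, 10.81 and 10.74 in the wild type and 11.10, 11.06 and 11.06 in the heterozygous line. Its lines did not overlap, and the difference of 0.26 (SE 0.07, adjusted p 0.0522) just missed the threshold (0.0160 to 0.176 over the alternatives, of which 5 passed). The muscle form Cox7a1 differed by −0.13 (adjusted p 0.600). Cox8b, a muscle form, read 5.02, 4.86 and 5.16 against 4.76, 4.67 and 4.54, all heterozygous arrays being lower (difference −0.36, SE 0.10, adjusted p 0.0567). Cox8b passed without wild-type replicate 2 (adjusted p 0.0166) and with array weights, and its alternatives ran up to 0.201. The common Cox8a differed by 0.11 and the testis form Cox8c by −0.03. The muscle form Cox6a2 went from 6.15 ± 0.05 to 5.90 ± 0.11 (difference −0.25, adjusted p 0.0996), beside 11.97 ± 0.06 and 12.05 ± 0.05 for the common Cox6a1.

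In the remaining pairs, Cox4i1 differed by 0.20 (adjusted p 0.235) and Cox4i2, a form of lung tissue, by −0.0072. Cox6b1 and Cox6b2, a testis form, differed by −0.02 and −0.14, and Cox7b and Cox7b2 by −0.21 (adjusted p 0.157) and −0.02. The core-associated genes Cox5a and Cox5b differed by 0.14 and −0.07. The genes grouped by symbol as complex IV thus held differences from −0.36 to 0.37. Ndufa4, now assigned to this complex but counted with complex I, differed by 0.44.

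ATP synthase joins a catalytic head, a rotating ring of c subunits and a stalk. The 5 head genes Atp5a1, Atp5b, Atp5c1, Atp5d and Atp5e differed by −0.11 to 0.10, with 0 past the threshold and 0 at an unadjusted p below 0.05 by limma. Atp5b, which encodes the catalytic beta subunit, read 13.00 ± 0.05 in the wild type and 13.02 ± 0.03 in the heterozygous line, and the 95% confidence interval of its difference was −0.14 to 0.19. The second probe set of Atp5d was the only one of 9 second probe sets among the members whose difference had the opposite sign (0.08, against −0.03). Among the 9, that of Atp5e lay farthest from the one used, at −0.30 against −0.11. It was nearly as bright, at 8.28 in the wild type and 7.98 in the heterozygous line, against 8.21 and 8.10. The range given for the head genes thus depends on the probe set used.

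The c ring is encoded by 3 genes whose mature proteins are alike. Atp5g3 (chromosome 2, 73908447 to 73912464; Entrez 228033) read 9.61, 9.66 and 9.53 in the wild type and 9.87, 9.95 and 9.85 in the heterozygous line, without overlap. The difference was 0.29 (SE 0.07, adjusted p 0.0391), and the call held without wild-type replicate 2 but was lost without each of the other 5 arrays (adjusted p 0.0215 to 0.152 over the alternatives). Atp5g1 and Atp5g2 differed by 0.05 (interval −0.28 to 0.39) and 0.01 (interval −0.14 to 0.17). Atp5g1 varied within the wild type, at 6.15, 6.58 and 6.75.

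Of 9 stalk and membrane genes 1 rose and 8 did not pass, where 7.46% of all genes were higher. Atp5mpl (chromosome 12), the gene of a small proteolipid of the membrane part, read 8.84, 8.57 and 8.75 in the wild type and 9.13, 9.08 and 9.09 in the heterozygous line. The heterozygous arrays were all higher, with a difference of 0.38 (SE 0.09, interval 0.18 to 0.58, adjusted p 0.0244). It failed the threshold without wild-type replicate 3 and without each heterozygous array (adjusted p up to 0.0997; 0.0148 to 0.0997 over the alternatives). Atp5md, another small membrane subunit gene, differed by 0.06.

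Of the members, 3 are X-linked. Ndufa1 read 7.44, 6.81 and 7.26 in the wild type and 7.43, 7.58 and 7.53 in the heterozygous line (difference 0.34, SE 0.15, adjusted p 0.212), so the lines overlapped and wild-type replicate 2 was the low array. Ndufb11 differed by 0.26 (adjusted p 0.340) and Cox7b by −0.21. Xist, the RNA that silences an X chromosome, read 4.81 ± 0.07 in the wild type and 11.06 ± 0.04 in the heterozygous line, and its part in these 3 values was not tested.

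Genes that work with the chain were read from lists of other pathway members. The 10 measured subunit genes of mitochondrial DNA (ND1 to ND6 with ND4L, CYTB, COX1 and COX3), which come from shared long transcripts and are therefore not independent, did not pass by limma, with 0 higher and 1 lower at an unadjusted p below 0.05. Their differences ran from −0.17 to −0.06 with a median of −0.10. All 10 were negative here, with arrays centred on their medians, after quantile normalization and without wild-type replicate 2. The nuclear-encoded members had a median of 0.05 under the deposited scaling. ND3 read 13.30 ± 0.02 in the wild type and 13.20 ± 0.02 in the heterozygous line (adjusted p 0.412).

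Of 6 nuclear genes close to the chain 1 rose and 5 did not pass, where 7.46% of all genes were higher. Nnt, a proton-linked transhydrogenase gene in which C57BL/6J mice are known to carry a deletion, rose by 0.28 (SE 0.07, limma adjusted p 0.0309). Its call held without wild-type replicate 2 and was lost without each of the other 5 arrays (adjusted p 0.0168 to 0.124 over the alternatives). Cycs, the cytochrome c gene on chromosome 6, differed by 0.17 (adjusted p 0.308).

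Of 46 assembly factor genes 4 rose (8.70%), 2 fell (4.35%) and 40 did not pass, with a median of 0.087. These shares lay near the 7.46% higher and 5.92% lower over all genes. They lay below the 10.5% and 8.23% of the brighter genes, which include all 46. Without wild-type replicate 2, 7 rose and 2 fell, where 2308 of the 22180 genes were higher and 1914 lower. Cox20, a cytochrome c oxidase assembly gene, differed by −0.29 (adjusted p 0.0473), a call lost with both other scalings and without each of the 5 arrays besides wild-type replicate 2 (adjusted p 0.0167 to 0.174 over the alternatives). Cox10, also an assembly gene of cytochrome c oxidase, rose by 0.43 (limma adjusted p 0.0164). Ecsit rose by 0.31 (limma adjusted p 0.0349). Both calls were lost without each of the same 5 arrays (adjusted p up to 0.0766 for Cox10 and 0.149 for Ecsit). Nubpl, which delivers iron-sulfur clusters to complex I, rose by 0.47 (SE 0.09, adjusted p 0.00821) and passed under each of the 14 other fits. The ATP synthase assembly genes went opposite ways: Atpaf1 rose by 0.47 (adjusted p 0.0145) and Atpaf2 differed by −0.43 (adjusted p 0.00880). Atpaf1 lost its call without heterozygous replicate 2 or 3 (adjusted p up to 0.0685; from 0.00344 over the alternatives) and Atpaf2 without heterozygous replicate 3 (0.0503; from 0.00414).

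Of 17 citric acid cycle and pyruvate dehydrogenase genes, 2 rose and 15 did not pass. Over all genes 7.46% were higher, and 20.6% on chromosome 6. Of the brighter genes, which include all 17, 10.5% were higher, and 33.7% on chromosome 6. Both that rose, Suclg2 and Suclg1, encode subunits of succinyl-CoA ligase and lie on chromosome 6. Without wild-type replicate 2, 3 of the 17 were higher, as were 2308 of the 22180 genes. Suclg2 read 8.90, 9.04 and 9.12 in the wild type and 10.76, 10.73 and 10.79 in the heterozygous line, a difference of 1.74 (SE 0.08, adjusted p 4.31e-06). Suclg1 rose by 0.42 (SE 0.11, adjusted p 0.0472), a call that was lost after quantile normalization and without each of the 5 arrays besides wild-type replicate 2 (adjusted p 0.00555 to 0.167). Of all 1201 chromosome 6 genes 778 were positive and 20.6% higher, and of its 710 brighter genes 526 were positive and 33.7% higher. Over the members and these lists, 8 genes lay on chromosome 6, all of them brighter genes. All 8 differences were positive and 4 passed. Of the 165 others, the 10 of mitochondrial DNA included, 103 were positive, 11 higher and 2 lower.

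Of 14 regulators of mitochondrial biogenesis 2 rose and 12 did not pass, where 7.46% of all genes and 10.5% of brighter genes were higher. Without wild-type replicate 2 the count was 4, and 2308 of the 22180 genes were higher. Ppargc1a read 6.42, 7.48 and 6.18 in the wild type and 9.32, 9.49 and 9.39 in the heterozygous line, with wild-type replicate 2 the highest of its line. The difference was 2.71 (SE 0.29, interval 2.03 to 3.39, adjusted p 0.0005665), and 3.10 without wild-type replicate 2. Pprc1, a related coactivator gene, rose by 0.39 (adjusted p 0.0133), a call lost without heterozygous replicate 2 or 3 (adjusted p up to 0.0716; from 0.00836). Nrf1, on chromosome 6, differed by 0.21 (adjusted p 0.120), Tfam, a mitochondrial transcription factor gene, by 0.16 (adjusted p 0.326) and Gabpa by −0.21 (adjusted p 0.140).

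**Figure D5:**
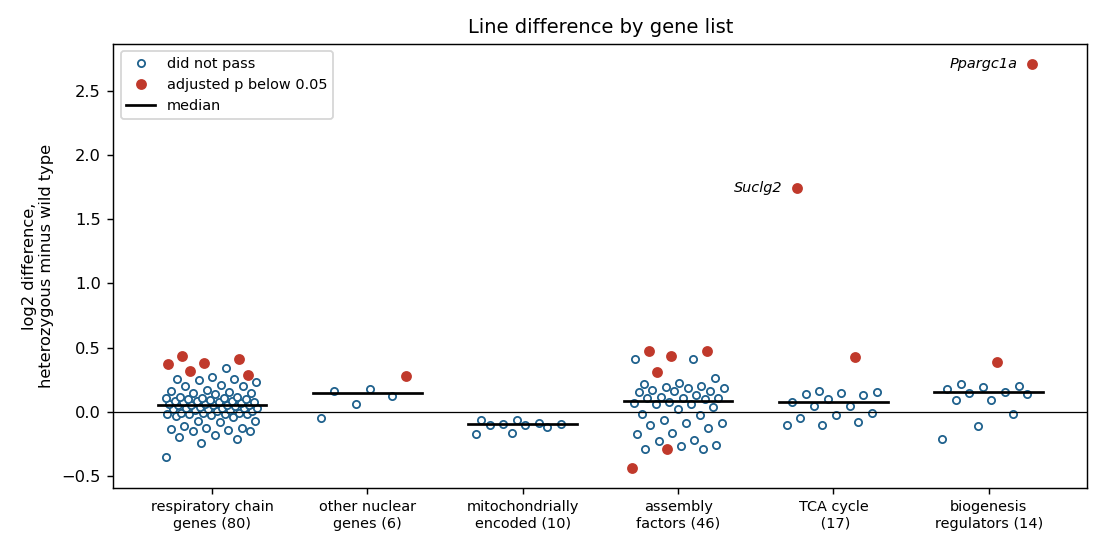
Log2 difference, heterozygous minus wild type, of each gene in the 80 respiratory chain genes and 5 other lists (number of measured genes in brackets); filled points passed at an adjusted p below 0.05, open points did not, and bars are list medians. Ppargc1a at 2.71 and Suclg2 at 1.74 stand above all other genes shown, and the 10 mitochondrially encoded genes all lie below 0, with a median of −0.10.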

How the data were processed

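The authors deposited log2 values. The submitters' processing notes name RMA, which corrects background, normalizes between arrays and summarises each probe set, and Partek. The sources used here give no version, setting or build. An array gives no counts, so the number of arrays limits the precision.

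Of 41345 probe sets, 23521 carried 1 gene symbol, 1814 several and 16010 none. The brightest probe set by mean over the 6 arrays stood for a gene with several (9 members). Levels of different genes were not tested against each other, though they set the dim level and picked the highest signal of each complex. All 22180 genes were fitted in R 4.3.3 by lmFit and eBayes of limma 3.58.1 (2-sided, 7.87 total degrees of freedom). The p-values were adjusted by Benjamini-Hochberg over all genes, with a threshold of 0.05. The fit was tried on simulated data, whose planted differences were larger than that of any member. The simulation thus does not cover differences of the members' sizes. No replicate block was used: same-numbered arrays of the lines did not deviate together (r over genes of 0.00739, 0.0160 and −0.00394). Positions are those of GRCm38.p6. Named were every member that passed, the members on chromosome 6, isoform pairs, the extremes and the highest signal of each complex, and up to 3 passing genes per list; others were singled out after their values were seen. The members, lists and tests were chosen with earlier results of these data known.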

Additional observations from a re-analysis of the deposited data

How the results depend on the processing

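The count of 6 members higher in the heterozygous line became 3 with a replicate block and 1 at an adjusted p below 0.01; with single arrays left out it ranged from 1 to 9. The count of 0 lower members became 1 with a variance trend (Sdha) and 1 with array weights, and ranged from 0 to 1 with single arrays left out. These counts did not move by over 1.5 times with other scalings, a robust prior, dim genes left out or probe sets averaged. Of 80 members 68 passed in none of 15 fits. No member that passed changed sign under any of them.

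Centring on array medians moved the median difference of all members from 0.054 to 0.083, of complexes II and III from 0.054 to 0.083, and of complex V from 0.027 to 0.056; quantile normalization moved complex V to 0.062. Leaving out dim genes moved complex IV from −0.020 to 0.038. With single arrays left out, medians ranged from 0.056 to 0.12 for complex I, −0.022 to 0.15 for complex III, −0.042 to 0.028 for complex IV, 0.028 to 0.053 for complex V and 0.33 to 0.47 for the 3 chromosome 6 members. Without the pseudogenes and Ndufa4l2, chosen after seeing the data, 5 members were higher; without chromosome 6, also chosen after, 4 were. The replicate block changed the calls of Atp5g3, Ndufa9 and Uqcrh-ps1 among the members and of Nnt, Ecsit and Cox20 in the lists, and no other call among the members. The numbers are not taken as pairs, because the labels do not say that they are shared. Same-numbered arrays also did not deviate together. Leaving out an array leaves fewer samples, and the causes of the other changes were not tested.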
